A study of Mus musculus with 672 samples.

Results

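Lymphoid-primed multipotent progenitors (LMPPs) are bone marrow cells that have lost megakaryocyte and erythroid potential but can still give rise to lymphoid cells and to granulocytes and macrophages. Transcripts of single LMPPs were compared between 2 mice with deleted Mbd3 alleles (Mbd3del/del, numbers 18217 and 18219, called null here) and 2 mice with intact floxed alleles (Mbd3flox/flox, numbers 18218 and 18220, called control). All 4 mice were 7 weeks old and of a C57BL6/129Ola background, and the marrow came from their femurs and tibiae. LMPPs were sorted without lineage markers, with Sca-1 and c-Kit, with high Flt3, and without surface IL-7Ra or B220. The comparison uses every cell with an LMPP title that held at least 50000 nuclear gene reads, at least 1000 nuclear genes, at most 20% mitochondrial reads and at most 50% spike-in reads. These limits kept 186 of 192 LMPPs, 45 and 47 from the null mice and 47 each from the control mice, out of 561 kept cells of 672 in the series. The other kept cells are all-lymphoid progenitors (ALPs, 235 cells) and B cell-biased lymphoid progenitors (BLPs, 140 cells) of the same 4 mice. The labels name neither the driver of the deletion nor the part of Mbd3 it removes, and each genotype rests on 2 animals.

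Mbd3 encodes a methyl-CpG-binding domain protein that holds together the NuRD complex, which couples nucleosome remodelling by CHD proteins to histone deacetylation by HDAC1 and HDAC2. NuRD sits at promoters and enhancers of active and poised genes and tunes their output in both directions. In blood progenitors the complex is known to take part in the restraint of genes of other lineages and in the control of stem cell and lymphoid programmes.

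Reads were summed over the kept LMPPs of each mouse, giving 72008270 and 58677406 gene reads in the null mice, against 94775872 and 137497554 in the control mice. Null cells were shallower, with per-mouse medians of 1314609 and 1079338 reads per cell, against 1836507 and 2475546 in control cells, and the mice did not overlap (exact permutation test, two-sided, p = 0.333, the smallest that 2 against 2 mice allow). After each cell was thinned to 50000 reads the per-mouse medians of detected genes overlapped, at 4504 and 3956 in null LMPPs and 4313 and 4082 in control LMPPs. Reads that did not align took 35.6% and 35.2% of entries in the median null cell, against 31.6% and 30.5% in the median control cell. The spread of summed libraries around their group means was wide, with a biological coefficient of variation of 86.9%. A median of 28.1% to 33.3% of a gene's reads in a mouse came from its single largest cell. Results are therefore given both as summed counts-per-million gene reads (CPM) and as the share of cells with at least 1 read at equal depth. In summed libraries, fewer cells of a kind and less RNA per cell cannot be told apart.

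The sorted cells carried the transcripts of their gate. Flt3, the receptor whose high surface level defines LMPPs, stood at 750 and 809 CPM in null mice and 1005 and 1002 CPM in control mice. Kit stood at 364 and 549 CPM in null LMPPs, against 406 and 503 CPM in control LMPPs. The Sca-1 gene Ly6a stood at 259 and 367 CPM in null LMPPs and at 501 and 298 CPM in control LMPPs. Kit and Ly6a overlapped between genotypes, and Flt3 was lower in both null mice (log2 fold change −0.36 ± 0.11, edgeR adjusted p = 0.681). Cd34, a marker of early progenitors, was read in 97.8% and 100% of null LMPPs at equal depth and in 100% of control LMPPs of either mouse. Ly6d, which appears at the later BLP stage, stayed at 2.96 and 2.05 CPM in null mice and 3.95 and 4.28 CPM in control mice.

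The deleted gene itself was low in null LMPPs but not at 0. Mbd3 (chr10:80392539-80399550, minus strand, build GRCm38) stood at 0.189 and 24.7 CPM in null mice, against 48.1 and 137 CPM in control mice. At equal depth 0% and 8.51% of null LMPPs had an Mbd3 read, against 40.4% and 59.6% of control LMPPs. The 0 of 45 cells in null mouse 18217 allows a share of up to 6.67%, for counting error only. Neither measure overlapped between genotypes. In null mouse 18219 a single cell held 1409 of the 1434 Mbd3 reads (98.3%), and the next cell held 4. The fitted log2 fold change of −2.90 ± 1.63 (± approximate SE) missed the edgeR threshold (adjusted p = 0.742). It was −8.17 without that cell, −8.94 without null mouse 18219, −1.92 without null mouse 18217 and −1.98 without control mouse 18220. The limma test of shares gave adjusted p = 0.301. With the thinning draw replaced by its exact expectation the shares were 1.16% and 5.65% in null mice against 39.5% and 59.0% in control mice, and limma then called Mbd3 (adjusted p = 0.0445), 1 of 3 genes of 11449 called that way (0.0262%). Over all alternatives its adjusted p ranged from 0.0108 to 0.998.

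Across all genes the LMPP comparison was wide in effect size and thin in calls. No gene of 19903 passed edgeR's quasi-likelihood test on summed counts at a Benjamini-Hochberg adjusted p of 0.05 (0%), with 1345 genes (6.76%) at an unadjusted p under 0.05, 625 higher (3.14%) and 720 lower (3.62%) in null LMPPs. DESeq2 called 495 genes (2.49%) on the same counts, and limma-voom called 0. The limma test of shares called 0 of 11730 genes (0%), with 622 genes (5.3%) at an unadjusted p under 0.05, 156 of them higher and 466 lower in null LMPPs (1.33% and 3.97%). Limma on the mean over cells of log2(CPM + 1) at equal depth called 15 of 11730 genes (0.128%), 3 higher (0.0256%) and 12 lower (0.102%) in null LMPPs. Without the filter on low counts edgeR called 8 genes of 34764 (0.023%), 1 higher and 7 lower. Both null mice lay above both control mice in CPM for 3215 genes (16.2%) and below them for 3550 genes (17.8%), and in shares for 1048 genes (8.93%) and 2372 genes (20.2%). The median log2 fold change over all genes tested was −0.02.

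Apoe, the gene of a secreted apolipoprotein that carries cholesterol and other lipids, was the 1 gene called both on per-cell means and without the low-count filter. It stood at 127 and 219 CPM in null mice, against 21.0 and 15.1 CPM in control mice (chr7:19696109-19699188, minus strand). At equal depth 53.3% and 53.2% of null LMPPs had an Apoe read, against 17.0% and 10.6% of control LMPPs. The mice did not overlap on either measure, and no cell held more than 22.0% of the reads in a null mouse. The summed counts gave a log2 fold change of 3.26 ± 0.55 (edgeR adjusted p = 0.371). Apoe rose in limma on per-cell means (3.25 ± 0.38, adjusted p = 6.19e-05), in limma on expected shares (adjusted p = 0.00866) and in edgeR without the low-count filter (adjusted p = 0.0278), and its adjusted p ranged from 9.13e-08 with DESeq2 to 0.949 over all alternatives.

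Apoe was also higher in the other populations of the same mice. In ALPs it stood at 36.0 and 49.6 CPM in null mice, against 2.03 and 3.42 CPM in control mice, and in BLPs at 44.5 and 27.2 CPM, against 0.270 and 0.105 CPM. The fold changes were 3.98 ± 0.57 in ALPs (edgeR adjusted p = 0.314) and 7.59 ± 0.68 in BLPs (edgeR adjusted p = 0.0405). For genotype edgeR called 1 of 19903 genes in ALPs (0.00502%) and 2 in BLPs (0.01%), the B-lineage factor gene Ebf1 in ALPs and Apoe and Ablim1 in BLPs. The smaller log2 fold change in LMPPs than in BLPs differed by −4.33 (interaction contrast, unadjusted p = 0.000361, edgeR adjusted p = 0.706). The control BLPs held 22 and 11 Apoe reads in all, so the BLP fold change rests on control counts near 0. Macrophages are a known source of Apoe. Of 14 listed macrophage and stroma markers, 3 and 5 had no read in the null mice, against 4 and 3 in the control mice, and their summed level was 89.5 and 153 CPM in null mice against 151 and 151 CPM in control mice, most of it Pecam1, which endothelial and blood cells share. Of the 8 tested, 5 were higher, 1 of them at an unadjusted p under 0.05 (Cxcl12, at 0.0404 and 15.0 CPM in null mice against 0.0316 and 0.0579 CPM in control mice). The median fitted log2 fold change, which rests on counts near 0, was 3.78, and −0.06 without null mouse 18217. The complement gene C1qa, which defines tissue macrophages, stood at 0.444 and 0 CPM in null LMPPs and at 0 CPM in both control mice.

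Ablim1, which encodes an actin-binding LIM protein, had the smallest p of all genes and was nearly absent from null LMPPs. It stood at 0.242 and 0.189 CPM in null mice, against 35.5 and 11.4 CPM in control mice (chr19:57032733-57314919, minus strand). Reads were found in 2.22% and 4.26% of null cells at equal depth, against 40.4% and 23.4% of control cells. The mice did not overlap. The log2 fold change was −6.75 ± 0.76 (edgeR adjusted p = 0.246). Ablim1 fell without the low-count filter (edgeR adjusted p = 0.000309) and in limma on expected shares (1.80% and 0.869% in null mice, against 36.8% and 22.6% in control mice, adjusted p = 0.0237). Its adjusted p ranged from 3.45e-20 with DESeq2 to 0.851. Ablim1 was likewise low in null ALPs, at 0.514 and 0.815 CPM against 57.7 and 41.8 CPM in control ALPs, and in null BLPs, at 0.300 and 0.360 CPM against 67.2 and 133 CPM in control BLPs. The 3 log2 fold changes of −6.75 in LMPPs, −6.23 in ALPs and −8.24 in BLPs come from the same 4 mice, and their differences from LMPPs had unadjusted p = 0.553 and 0.124.

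**Figure D1:**
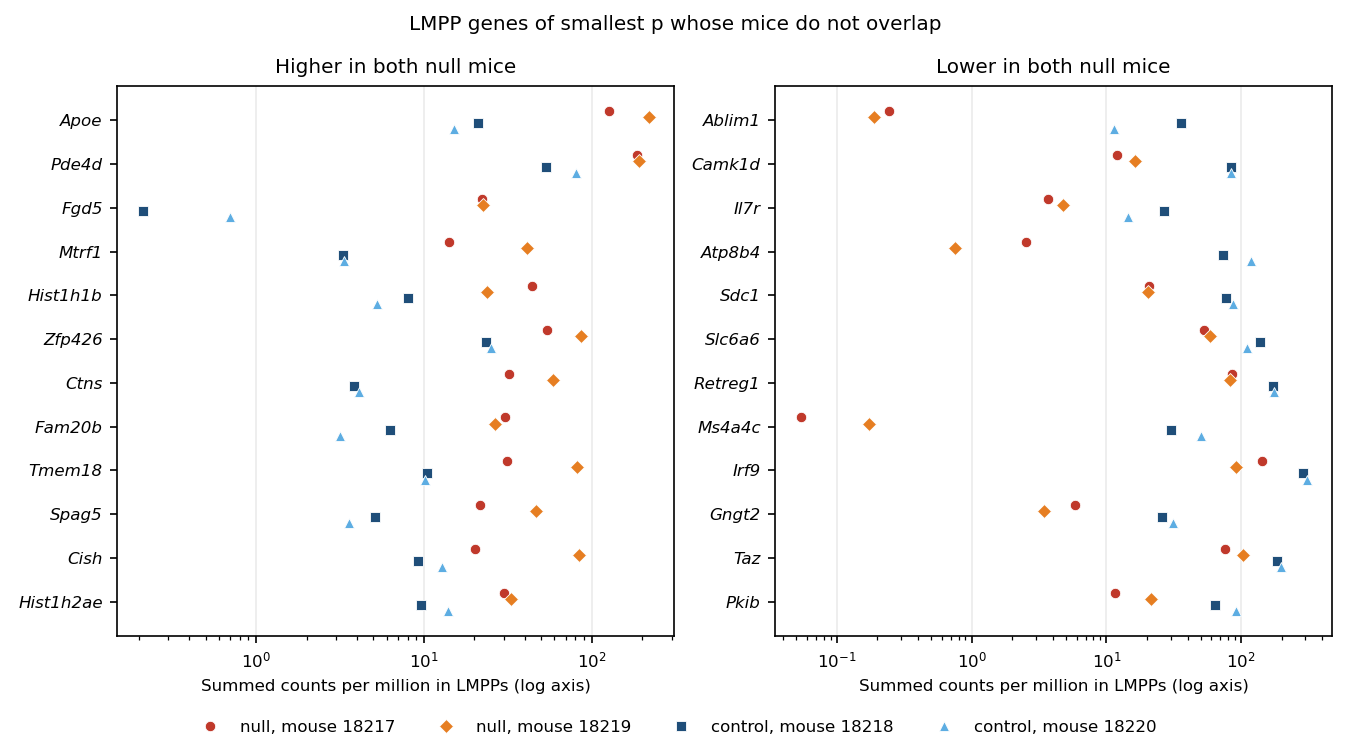
Summed counts-per-million (log axis) in LMPPs for the 12 genes of smallest p in each direction whose mice did not overlap in CPM or in shares. Each point is 1 mouse, null mice in red and orange and control mice in dark and light blue. Apoe, at 127 and 219 CPM in null mice against 21.0 and 15.1 CPM in control mice, leads the left panel, and Ablim1 leads the right panel.

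Of the named genes that were higher in null LMPPs, 12 met the rule (smallest p, at least 20 CPM, mice apart on both measures), from 309 candidates, with log2 fold changes of 1.41 to 5.60 and edgeR adjusted p of 0.371 to 0.652. Pde4d, a phosphodiesterase that breaks down cyclic AMP, stood at 187 and 192 CPM in null mice, against 53.1 and 80.7 CPM in control mice (chr13:108449948-109953461, plus strand). It was read in 86.7% and 72.3% of null LMPPs, against 55.3% and 40.4% of control LMPPs, so the difference lay in many cells. Its log2 fold change was 1.51 ± 0.28 (edgeR adjusted p = 0.429), beside 0.89 in ALPs and 1.34 in BLPs.

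Fgd5, an exchange factor whose expression marks haematopoietic stem cells in mice, stood at 22.2 and 22.4 CPM in null LMPPs, against 0.211 and 0.702 CPM in control LMPPs. It was read in 15.6% and 17.0% of null cells and in 0% and 2.13% of control cells at equal depth, where 0 of 47 cells allows a share of up to 6.38%. Between genotypes the mice were far apart (5.60 ± 1.20, edgeR adjusted p = 0.606). Other listed stem and multipotent genes were split. Slamf1, a further stem cell marker, had a larger fitted log2 fold change of 7.23, but from 6.11 and 0.0344 CPM in null mice against 0.0316 and 0.00724 CPM in control mice. Hoxa9, a homeobox factor of early progenitors, stood at 172 and 214 CPM in null mice against 423 and 283 CPM in control mice, and of 23 listed genes tested 9 were higher and 14 lower. The median log2 fold change was −0.07, and 0.12 without null mouse 18217.

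Cd74, the invariant chain of MHC class II, stood at 81.0 and 67.4 CPM in null LMPPs, against 8.01 and 14.7 CPM in control LMPPs (2.71 ± 0.48, edgeR adjusted p = 0.396). Its share of cells overlapped between genotypes, at 40.0% and 19.1% of null LMPPs and 12.8% and 21.3% of control LMPPs, and 1 cell held 60.5% of its reads in null mouse 18219. The class II chain H2-Aa stood at 49.4 and 65.2 CPM in null mice, against 8.62 and 13.7 CPM in control mice (2.36, unadjusted p = 0.196). Of 11 class II genes tested 8 were higher and 3 lower, with a median of 0.12 that ranged from −0.0071 without null mouse 18219 to 0.77 without control mouse 18218, and was 0.58 with thinned cells. The dendritic list, which shares Cd74 with that list, had 4 of 15 members higher and 11 lower in null LMPPs, at a median of −0.30 (−0.16 without null mouse 18217 and −0.07 on per-cell means) and a summed level of 1320 and 1574 CPM in null mice against 1660 and 1560 CPM in control mice.

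Feedback genes of signalling pathways split by gene. Cish, an inhibitor induced by STAT5, stood at 20.1 and 83.6 CPM in null mice, against 9.25 and 12.8 CPM in control mice (2.23 ± 0.62, edgeR adjusted p = 0.652), and the fold change was 0.85 without null mouse 18219. Socs3, an inhibitor induced by STAT3, stood at 19.4 and 19.6 CPM in null LMPPs, against 3.93 and 2.02 CPM in control LMPPs (2.71 ± 0.78, edgeR adjusted p = 0.676). Socs2 stood at 9.43 and 18.0 CPM in null LMPPs and at 0.484 and 4.31 CPM in control LMPPs. Of 20 listed feedback genes 5 were higher at an unadjusted p under 0.05 (background 3.14%), namely Cish, Socs3, Socs2 and the Notch pathway genes Hes1 and Dtx1, none of which passed edgeR after adjustment. Hes1 and Dtx1 rest on few cells. Expected shares of Hes1 were 2.48% and 6.25% in null mice, against 0.597% and 2.51% in control mice, which overlap. Those of Dtx1 were 2.44% and 2.13% in null mice, against 0.120% and 0.117% in control mice. The kinase gene Pim1, also a cytokine target, was lower at 17.1 and 20.2 CPM in null mice against 35.7 and 36.2 CPM in control mice. The median over the whole list was −0.17, with 9 members higher and 11 lower, and was 0.37 without control mouse 18220 and 0.10 without control mouse 18218.

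Among the 12 named genes that were lower in null LMPPs, from 852 candidates, log2 fold changes ran from −8.48 to −1.03 and edgeR adjusted p from 0.246 to 0.606. Camk1d, a calcium- and calmodulin-dependent kinase, stood at 11.9 and 16.3 CPM in null mice, against 84.7 and 83.7 CPM in control mice (chr2:5293457-5714515, minus strand). Shares of cells were 20.0% and 17.0% in null mice and 48.9% and 40.4% in control mice. The log2 fold change of −2.58 ± 0.33 missed the edgeR threshold with the filter (adjusted p = 0.312) and passed it without (adjusted p = 0.00133, range over alternatives 2.37e-10 to 0.949). In ALPs and BLPs the fold changes were −0.40 and −0.37, and the interaction contrasts of −2.18 and −2.21 had unadjusted p of 0.000926 and 0.00085 (edgeR adjusted p = 0.899 and 0.706).

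Atp8b4, a phospholipid flippase gene, stood at 2.55 and 0.757 CPM in null mice, against 72.9 and 119 CPM in control mice (chr2:126320973-126500674, minus strand). It was read in 2.22% and 2.13% of null LMPPs, against 38.3% and 31.9% of control LMPPs. The genotypes were far apart in LMPPs (−5.85 ± 0.81, edgeR adjusted p = 0.32), against −0.70 in ALPs and −1.70 in BLPs. The differences of −5.15 and −4.15 between populations had unadjusted p of 0.000642 and 0.00228, and neither passed adjustment (edgeR adjusted p = 0.899 and 0.706).

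The other named genes were more scattered in function. Ms4a4c, of the membrane-spanning 4A family, stood at 0.0539 and 0.172 CPM in null mice, against 30.2 and 50.7 CPM in control mice, and was read in 0% and 2.13% of null LMPPs against 6.38% and 8.51% of control LMPPs (−8.48 ± 1.62, edgeR adjusted p = 0.465). Slc6a6, the taurine transporter, stood at 53.2 and 59.1 CPM in null LMPPs, against 137 and 110 CPM in control LMPPs (−1.14 ± 0.20, edgeR adjusted p = 0.396). Tmem18 stood at 31.4 and 81.3 CPM in null mice, against 10.4 and 10.1 CPM in control mice (2.46 ± 0.65, edgeR adjusted p = 0.628), with 1.60 without null mouse 18219. Retreg1, Gngt2, Taz and Pkib completed the lower set, and Mtrf1, Zfp426, Ctns, Fam20b and Spag5 stood among the higher. In both ALPs and BLPs the fitted direction was the LMPP one for 9 of the 12 lower and 4 of the 12 higher genes, over the same 4 mice. The share over all genes is not given, so these counts cannot be read as agreement between stages.

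Of the listed cytokine receptors, 6 were lower at an unadjusted p under 0.05, and 5 of them are given here beside Flt3 above. Il7r, whose protein the gate excludes, stood at 3.72 and 4.73 CPM in null LMPPs, against 26.7 and 14.5 CPM in control LMPPs (−2.29 ± 0.30, edgeR adjusted p = 0.312), and fewer null cells had a read (17.8% and 10.6%, against 25.5% and 21.3%). Il3ra, the interleukin 3 receptor chain, stood at 7.27 and 7.34 CPM in null mice, against 36.3 and 36.0 CPM in control mice (−2.31 ± 0.77, edgeR adjusted p = 0.699). It was read in 17.8% and 12.8% of null LMPPs and in 36.2% and 29.8% of control LMPPs. Csf2ra, the GM-CSF receptor alpha chain, stood at 22.8 and 34.1 CPM in null mice against 59.1 and 70.5 CPM in control mice, and its partner Csf2rb at 34.0 and 23.0 CPM against 67.3 and 63.7 CPM. Il18r1, the interleukin 18 receptor, stood at 0.0943 and 0.413 CPM in null LMPPs, against 21.8 and 7.28 CPM in control LMPPs (−5.86 ± 0.92, edgeR adjusted p = 0.366).

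The mice did not overlap in CPM for any of these receptors, but the receptors were picked by their small p on the same counts. Of 24 listed cytokine receptors tested, 8 were higher and 16 lower, and 6 were lower at an unadjusted p under 0.05 (background 3.62%) with none higher. Both null mice lay below both control mice in CPM for 10 of 24 (background 17.8%) and in shares for 11 (background 20.2%). The list median was −0.35, against −0.02 over all genes, and −0.32 in ALPs and −0.28 in BLPs. It was −0.64 on per-cell means and −0.18 without control mouse 18218, with 11 of 25 higher.

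Lymphoid priming genes were split. Of 24 genes tested 11 were higher and 13 lower in null LMPPs, with 6 lower at an unadjusted p under 0.05 (background 3.62%), 0 higher and a median of −0.16. The smallest edgeR adjusted p was 0.312 both here and in the receptor list, that of Il7r, so the counts of these lists are not independent. Rag1, part of the antigen receptor recombinase, stood at 0.727 and 0.894 CPM in null mice, against 2.02 and 3.78 CPM in control mice. Satb1, a chromatin organiser of lymphoid progenitors, stood at 303 and 212 CPM in null LMPPs, against 411 and 329 CPM in control LMPPs. Summed over the list the genotypes overlapped, at 3085 and 3666 CPM in null mice and 4298 and 2959 CPM in control mice, and the median was 0.25 without control mouse 18218 and −0.49 without control mouse 18220.

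**Figure D2:**
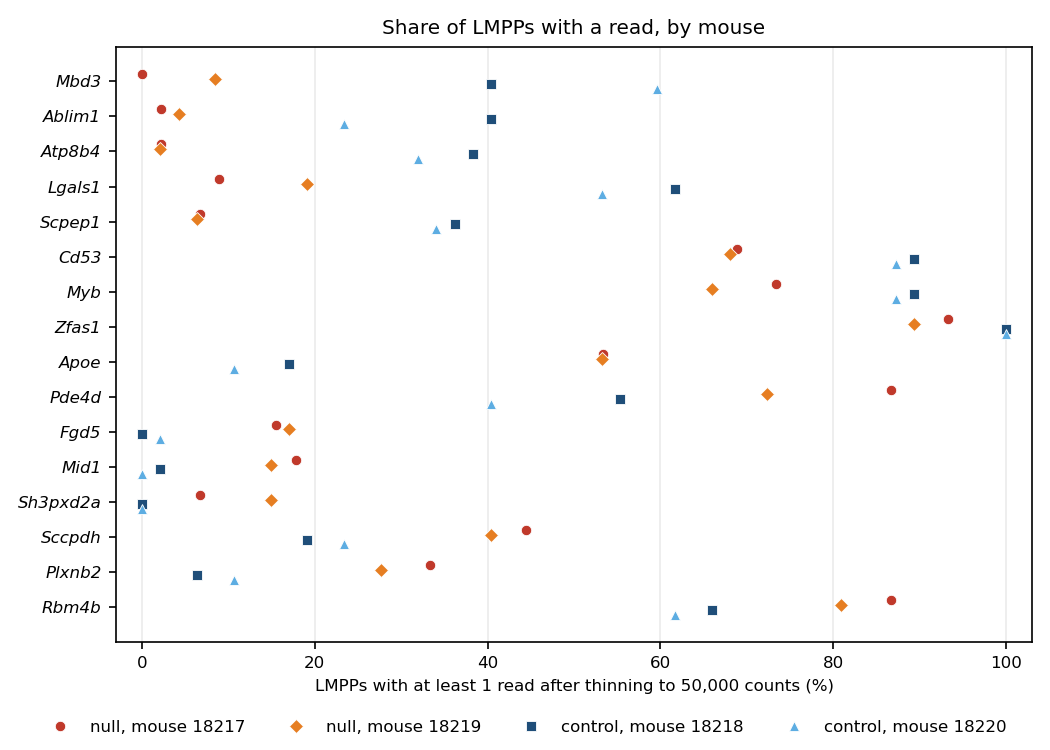
Share of LMPPs with at least 1 read after thinning to 50000 reads, in percent, for 16 genes. Each point is 1 mouse (45 to 47 cells), null mice in red and orange and control mice in blue. Lgals1 was read in 8.89% and 19.1% of null LMPPs against 61.7% and 53.2% of control LMPPs, and Apoe in 53.3% and 53.2% against 17.0% and 10.6%.

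Counting cells instead of reads brought out a further set of genes. Lgals1, the gene of galectin-1, a secreted lectin, was read in 8.89% and 19.1% of null LMPPs, against 61.7% and 53.2% of control LMPPs (limma on shares, adjusted p = 0.294). Its summed level was 2.37 and 13.0 CPM in null mice, against 90.5 and 115 CPM in control mice (chr15:78926725-78930465, plus strand). Lgals1 fell in limma on per-cell means (−3.25, adjusted p = 0.00166, range over alternatives 0.00166 to 0.955). Cd53, a tetraspanin of leukocytes, was read in 68.9% and 68.1% of null LMPPs, against 89.4% and 87.2% of control LMPPs, and also fell on per-cell means (−2.14, limma adjusted p = 0.00642, range 0.00642 to 0.949). Scpep1, a serine carboxypeptidase gene, was read in 6.67% and 6.38% of null cells, against 36.2% and 34.0% of control cells (limma on shares, adjusted p = 0.294).

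Myb, a transcription factor that progenitors need, showed how the measures can part. It was read in 73.3% and 66.0% of null LMPPs, against 89.4% and 87.2% of control LMPPs (limma on shares, adjusted p = 0.294). Summed CPM overlapped, at 199 and 165 in null mice and 145 and 218 in control mice, with a log2 fold change of 0.00 ± 0.22. Higher shares in null LMPPs were led by Mid1, a ubiquitin ligase gene on chromosome X, read in 17.8% and 14.9% of null cells, against 2.13% and 0% of control cells, and by Sh3pxd2a, Sccpdh, Rbm4b, Plxnb2 and Skp1a.

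The 15 genes called on per-cell means were Apoe, Serpina3f and Serpina3g, which rose in null LMPPs, and Tnip3, Hk3, Mc5r, Ccl9, Lgals1, Aqp9, Cd53, Mbd3, Dock10, Rsrp1, H2afy and Prtn3, which fell. Tnip3, an inhibitor of NF-kappaB signalling, stood at 38.0 and 29.7 CPM in null mice, against 149 and 154 CPM in control mice, and was read in 15.6% and 14.9% of null LMPPs against 51.1% and 44.7% of control LMPPs (limma adjusted p = 6.19e-05, range 6.19e-05 to 0.955). Hk3, a hexokinase of myeloid cells, stood at 9.83 and 4.95 CPM in null LMPPs, against 49.0 and 63.8 CPM in control LMPPs (limma adjusted p = 0.000184). Ccl9, a chemokine, was read in 20.0% and 29.8% of null LMPPs and in 74.5% and 55.3% of control LMPPs (limma adjusted p = 0.000741). Summed counts had the same direction, where Tnip3 had −2.16 ± 1.28, Hk3 −2.93 ± 1.68 and Ccl9 −1.10 ± 0.89 without passing the edgeR test (adjusted p = 0.748, 0.742 and 0.859).

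Serpina3f and Serpina3g, neighbouring genes of closely related protease inhibitors whose reads can be split between copies, were read in more null cells. Serpina3g was found in 73.3% and 68.1% of null LMPPs, against 44.7% and 51.1% of control LMPPs, and Serpina3f in 53.3% and 63.8%, against 8.51% and 31.9%. Serpina3g stood at 452 and 520 CPM in null mice, against 431 and 137 CPM in control mice, and Serpina3f, which overlapped, at 43.1 and 80.3 CPM against 62.0 and 24.9 CPM. In control mouse 18218 a single cell held 45.9% of the Serpina3g reads.

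Granulocyte and macrophage genes split by gene. Mpo, the myeloperoxidase of early granulocyte precursors, stood at 881 and 1357 CPM in null LMPPs, against 498 and 385 CPM in control LMPPs (1.34 ± 0.45, edgeR adjusted p = 0.699). Ctsg, another granule enzyme, stood at 201 and 117 CPM in null mice, against 15.9 and 22.6 CPM in control mice (3.05 ± 1.28, edgeR adjusted p = 0.736). Prtn3, a granule protease, went the other way in shares of cells, a different measure from CPM. It was read in 28.9% and 31.9% of null LMPPs, against 48.9% and 74.5% of control LMPPs (per-cell means, −2.58, limma adjusted p = 0.0471). Expected shares of Ctsg were 25.6% and 26.5% in null mice, against 8.46% and 10.2% in control mice, and those of Mpo overlapped. The lysozyme gene Lyz2 stood at 253 and 460 CPM in null mice and at 480 and 577 CPM in control mice.

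Of 18 listed myeloid genes 14 were tested, 4 higher and 10 lower, with a median of −0.81 that was −1.52 without null mouse 18219 and −0.36 without control mouse 18220. Null LMPPs averaged 3.62 and 3.40 of these genes with a read per cell at equal depth, against 4.40 and 4.45 in control LMPPs. Lists of other kinds, such as splicing, were also lower in both null mice on this count, and the remaining lists overlapped. Mpo was read in 84.4% and 70.2% of null LMPPs and in 80.9% and 70.2% of control LMPPs, so that its higher CPM did not come with more cells. A single cell held 44.5% and 36.0% of the Mpo reads in the null mice, against 16.4% and 11.9% in the control mice.

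Interferon response genes were lower in null LMPPs as a group. All 25 listed genes had a fitted log2 fold change below 0 (50.9% of all genes did), with a median of −1.06 against −0.02 over all genes. Both null mice lay below both control mice in CPM for 20 of 25 (background 17.8%) and in shares of cells for 12 of 25 (background 20.2%). At an unadjusted p under 0.05, 8 were lower (background 3.62%) and 0 higher (background 3.14%), and none passed edgeR after adjustment. Summed over the list, null mice reached 1336 and 1270 CPM, against 3358 and 2139 CPM in control mice.

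Type I interferon signals through STAT2 and IRF9, which bind interferon-stimulated response elements and switch on antiviral effectors. Of these transducers, Irf9 stood at 142 and 91.9 CPM in null LMPPs, against 289 and 306 CPM in control LMPPs (−1.35 ± 0.27, edgeR adjusted p = 0.504). Stat2 stood at 17.9 and 28.2 CPM in null mice, against 131 and 37.9 CPM in control mice (−1.88 ± 0.69, edgeR adjusted p = 0.726). Irf7, which amplifies the response, stood at 70.1 and 51.4 CPM in null LMPPs, against 255 and 142 CPM in control LMPPs. For each of these 3 genes the null mice lay below the control mice.

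Effector genes were lower too. Mx1, an antiviral GTPase, stood at 6.17 and 5.26 CPM in null LMPPs, against 108 and 25.3 CPM in control LMPPs (−3.54 ± 0.93, edgeR adjusted p = 0.628), but single cells held 82.3% and 95.4% of its reads in the null mice and 40.8% and 74.2% in the control mice. Oasl2, of the oligoadenylate synthetase family, stood at 119 and 69.2 CPM in null mice, against 242 and 215 CPM in control mice (−1.28 ± 0.46, edgeR adjusted p = 0.72). Isg15, a ubiquitin-like modifier, stood at 7.04 and 5.40 CPM in null LMPPs, against 56.1 and 26.3 CPM in control LMPPs (−2.73 ± 1.06, edgeR adjusted p = 0.732). At the other end of the list Bst2 stood at 167 and 138 CPM in null mice and at 180 and 169 CPM in control mice, and Oas3 overlapped.

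Promoters are shown for 3 of these genes to set the responsive element beside the values, with each match to GAAA, 2 bases of any kind and GAAA again on either strand in capitals, overlapping matches included (RefSeq, build GRCm38.p6, from 250 bases before to 50 after the start, 5′ to 3′ on the gene's strand). Irf9 was taken by the rule of smallest p, and Stat2 and Isg15 were chosen after their values were seen. The rule also took Oasl2, whose window held 0 matches and is not shown. The windows are Irf9 at chr14:55603735-55604034 on the plus strand, Stat2 at chr10:128270248-128270547 on the plus strand, and Isg15 at chr4:156200769-156201068 on the minus strand.
Irf9: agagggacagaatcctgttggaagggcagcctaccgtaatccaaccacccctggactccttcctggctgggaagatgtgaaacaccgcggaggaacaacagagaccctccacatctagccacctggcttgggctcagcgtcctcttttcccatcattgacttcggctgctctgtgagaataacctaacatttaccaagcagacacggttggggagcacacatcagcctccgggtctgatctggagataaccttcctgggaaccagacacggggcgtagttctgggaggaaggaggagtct
Stat2: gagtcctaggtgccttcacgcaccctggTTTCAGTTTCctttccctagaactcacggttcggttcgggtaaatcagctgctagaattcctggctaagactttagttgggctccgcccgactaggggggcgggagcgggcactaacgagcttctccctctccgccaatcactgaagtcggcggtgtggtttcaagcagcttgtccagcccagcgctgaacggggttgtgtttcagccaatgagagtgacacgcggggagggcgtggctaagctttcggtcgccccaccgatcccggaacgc
Isg15: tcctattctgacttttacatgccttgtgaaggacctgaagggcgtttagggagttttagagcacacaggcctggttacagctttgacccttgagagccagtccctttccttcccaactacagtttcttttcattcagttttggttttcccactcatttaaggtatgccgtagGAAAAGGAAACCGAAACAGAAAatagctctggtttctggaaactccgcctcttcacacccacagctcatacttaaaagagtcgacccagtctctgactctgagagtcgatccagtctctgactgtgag
Isg15 held 3 overlapping matches, Stat2 held 1 and Irf9 held 0 in these windows. The element occurred in 10 of the 17 listed promoters that had a sequence (58.8%) and in 1131 of 32851 promoters of the same length (3.44%). A match is a description of the letters and not of binding.

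Counted per cell at equal depth, null LMPPs averaged 7.38 and 6.13 interferon genes with a read, against 9.85 and 7.70 in control LMPPs. The difference was −2.02 genes per cell. Lists of other kinds also lay lower in both null mice on this count, among them cytokine receptors (−1.43) and splicing (−1.09). The lists that were not lower overlapped between genotypes. The most interferon genes in any cell was 15 and 14 in the null mice, against 25 and 22 in the control mice. With cells thinned before summing the median was −0.85 with 23 of 25 lower, and on per-cell means it was −0.66. Without control mouse 18218, which was high for most members, the median was −0.69 with 21 of 25 lower, and without each of the other mice it lay between −1.56 and −1.16.

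The same list was also counted in the later stages, with no test of the group difference. In ALPs 18 of the 25 were lower in null mice with a median of −0.31, and in BLPs 8 were lower and 17 higher with a median of 0.18. Interferon genes per cell averaged 7.44 and 6.40 in null ALPs against 7.24 and 6.72 in control ALPs, and 6.33 and 6.80 in null BLPs against 6.12 and 4.66 in control BLPs. For Irf9 the effect in LMPPs was lower than that in BLPs by −1.52 (unadjusted p = 0.00308, edgeR adjusted p = 0.706). No gene passed the edgeR test of the LMPP effect minus the BLP effect (0%), with 1349 of 19903 genes (6.78%) at an unadjusted p under 0.05. The test against ALPs also called none (0%), with 1044 genes (5.25%) at an unadjusted p under 0.05.

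**Figure D3:**
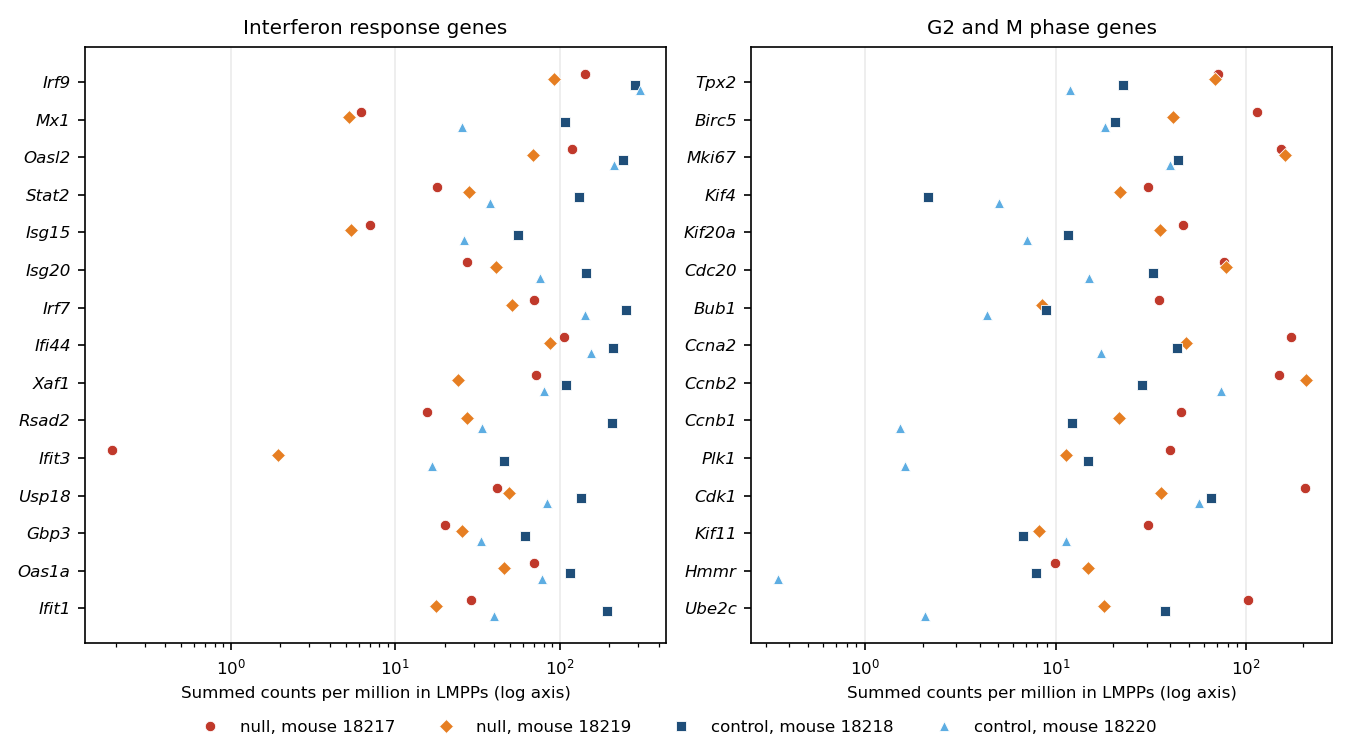
Summed counts-per-million (log axis) in LMPPs for the 15 interferon response genes and the 15 G2 and M phase genes of smallest p, ordered by p. Each point is 1 mouse, null mice in red and orange and control mice in blue. Over the whole lists null mice lie below control mice for 20 of the 25 interferon genes and above them for 11 of the 24 cycle genes.

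Genes of the G2 and M phases of the cell cycle were higher in null LMPPs, most of all in mouse 18217. All 24 listed genes had a fitted log2 fold change above 0 (48.1% of all genes did), with a median of 1.60. Both null mice lay above both control mice in CPM for 11 of 24 (background 16.2%) and in shares for 3 of 24 (background 8.93%). At an unadjusted p under 0.05, 6 were higher (background 3.14%). Summed over the list the null mice reached 1981 and 990 CPM, against 677 and 535 CPM in the control mice.

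Mki67, the Ki-67 proliferation antigen, stood at 152 and 161 CPM in null LMPPs, against 44.2 and 39.7 CPM in control LMPPs (1.90 ± 0.68, edgeR adjusted p = 0.72). It was read in 46.7% and 25.5% of null LMPPs, against 21.3% and 19.1% of control LMPPs, and 1 cell held 55.0% of the reads in null mouse 18219. Tpx2, a spindle assembly factor, stood at 71.4 and 68.6 CPM in null mice, against 22.5 and 11.9 CPM in control mice (2.03 ± 0.48, edgeR adjusted p = 0.628). Birc5, the survivin of the chromosomal passenger complex, stood at 114 and 41.5 CPM in null LMPPs, against 20.5 and 18.2 CPM in control LMPPs, and 1 cell held 76.2% of its reads in null mouse 18219. Kif4, a chromosome-bound kinesin, stood at 30.6 and 21.9 CPM in null mice, against 2.14 and 5.04 CPM in control mice. Shares of cells did not separate the genotypes for Tpx2 (31.1% and 8.51% of null LMPPs, 19.1% and 10.6% of control LMPPs).

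The promoters of Mki67 and Birc5 are shown because CCAAT boxes and the cell cycle homology element are known from genes transcribed late in the cycle, and both genes were taken by the rule of smallest p among members with a sequence. Capitals mark CCAAT and the homology element (TTTGAA or TTCGAA) on either strand (RefSeq, build GRCm38.p6, 5′ to 3′ on the gene's strand). Mki67 lies on the minus strand with its window at chr7:135716330-135716629, and Birc5 on the plus strand with its window at chr11:117848987-117849286.
Mki67: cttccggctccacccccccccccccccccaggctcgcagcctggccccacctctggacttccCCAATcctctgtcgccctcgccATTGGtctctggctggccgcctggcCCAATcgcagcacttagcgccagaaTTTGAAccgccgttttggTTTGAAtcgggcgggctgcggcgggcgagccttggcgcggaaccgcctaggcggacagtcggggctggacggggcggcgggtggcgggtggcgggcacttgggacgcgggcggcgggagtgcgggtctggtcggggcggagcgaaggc
Birc5: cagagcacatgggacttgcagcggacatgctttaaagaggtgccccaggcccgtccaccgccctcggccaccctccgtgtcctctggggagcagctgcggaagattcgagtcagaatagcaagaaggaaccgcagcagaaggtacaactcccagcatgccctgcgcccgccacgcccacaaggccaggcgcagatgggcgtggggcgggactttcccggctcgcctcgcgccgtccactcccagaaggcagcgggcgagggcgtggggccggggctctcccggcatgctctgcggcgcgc
The Mki67 window held 3 CCAAT boxes and 2 homology elements, and the Birc5 window held 0 of either. CCAAT occurred in 18 of the 20 listed promoters with a sequence (90.0%) and in 37.4% of all 32851, and the homology element in 16 of 20 (80.0%) and in 19.2% of all. These shares describe letters only.

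Per cell the difference rested on null mouse 18217. Its LMPPs averaged 6.44 of the 24 genes with a read at equal depth and those of null mouse 18219 averaged 2.91, against 3.60 and 2.74 in control mice. At least 6 of the genes were read in 19 of 45 (42.2%) and 5 of 47 (10.6%) null LMPPs, against 8 of 47 (17.0%) and 5 of 47 (10.6%) control LMPPs. The 95% Wilson intervals of these shares were 29.0% to 56.7% and 4.63% to 22.6% in the null mice, against 8.89% to 30.1% and 4.63% to 22.6% in the control mice, for counting error only. Without mouse 18217 the list median was 0.44 with 16 of 24 higher, and on per-cell means it was 0.47. In ALPs of the same mice all 24 genes were lower in null mice (median −0.95), and in BLPs all 24 were higher (median 1.85).

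S phase genes repeated the split between the null mice. At least 10 of 23 listed genes were read in 75.6% of LMPPs of null mouse 18217 and 29.8% of those of null mouse 18219, against 38.3% and 31.9% in control mice. The S phase list had 20 of 23 genes higher and a median of 0.38, which became −0.51 with 4 of 23 higher when mouse 18217 was left out. The histone genes Hist1h1b and Hist1h2ae, which are transcribed in S phase, were among the 12 higher genes named by rule. That rule takes only genes higher in both null mice, so their direction was fixed by the choice. Hist1h1b stood at 43.9 and 23.8 CPM in null LMPPs and at 8.03 and 5.26 CPM in control LMPPs (2.35 ± 0.56, edgeR adjusted p = 0.628).

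**Figure D4:**
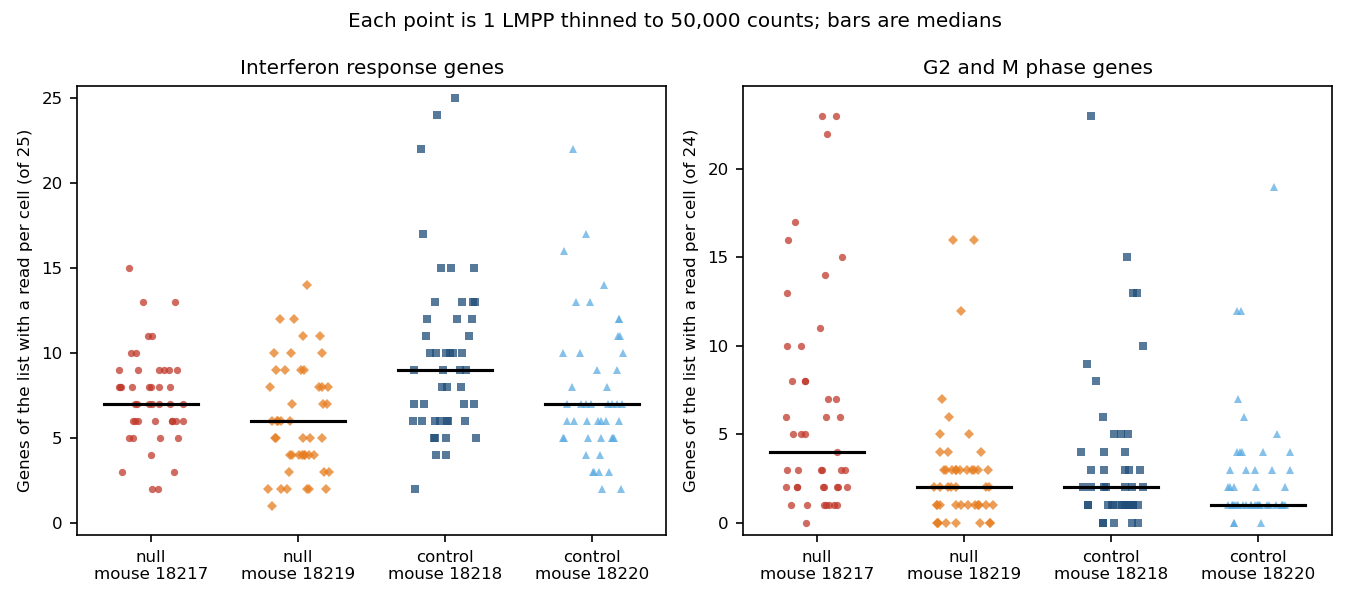
Number of listed interferon response genes (left, of 25) and G2 and M phase genes (right, of 24) with a read in each LMPP after thinning to 50000 reads. Each point is 1 cell, columns are mice with the null mice first, and bars are medians. Interferon medians are 7 and 6 in null mice against 9 and 7 in control mice, and G2 and M medians are 4 and 2 against 2 and 1.

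NuRD has other subunits, and their direction depended on the measure. Of 14 listed subunit genes, Mbd3 among them, 8 were higher and 6 lower in null LMPPs with a median of 0.11, and on per-cell means 4 were higher and 10 lower with a median of −0.12. At an unadjusted p under 0.05, 2 were lower (background 3.62%) and 0 higher. Null LMPPs averaged 7.38 and 6.62 subunit genes with a read per cell at equal depth, against 7.70 and 7.62 in control LMPPs. Lists of other kinds, such as splicing, were likewise lower in both null mice on this count, and the remaining lists overlapped. Gatad2b, a scaffold subunit, stood at 42.4 and 34.6 CPM in null mice, against 60.9 and 68.3 CPM in control mice (−0.75 ± 0.26, edgeR adjusted p = 0.699). Chd3, a remodelling ATPase, stood at 24.1 and 44.0 CPM in null LMPPs, against 63.6 and 77.8 CPM in control LMPPs (−1.05 ± 0.40, edgeR adjusted p = 0.728). Mbd2, the paralogue that takes the place of Mbd3 in a separate NuRD form, stood at 12.1 and 28.4 CPM in null mice and at 26.8 and 42.8 CPM in control mice, which overlap.

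In summed counts, housekeeping groups had medians near that of all genes. They were −0.01 for 40 ribosomal protein genes, for 34 respiratory chain genes and for 13 genes of the mitochondrial genome, with 19 of 40, 17 of 34 and 6 of 13 higher. With cells thinned to equal counts the medians were 0.09, 0.17 and 0.16, with 31 of 40, 29 of 34 and 10 of 11 higher, against 0.01 over all genes. Unfolded protein response genes were higher in 16 of 18 with a median of 0.28. That median was 0.17 without null mouse 18219 and −0.0041 on per-cell means. Among the higher was Hspa5, an endoplasmic reticulum chaperone, at 542 and 617 CPM in null mice against 389 and 336 CPM in control mice. Calr, another chaperone of the same compartment, was lower, at 405 and 306 CPM in null mice against 541 and 499 CPM in control mice. MHC class I genes, many of them induced by interferon, were lower in 13 of 15 with a median of −0.28, and −0.16 without null mouse 18217.

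**Figure D5:**
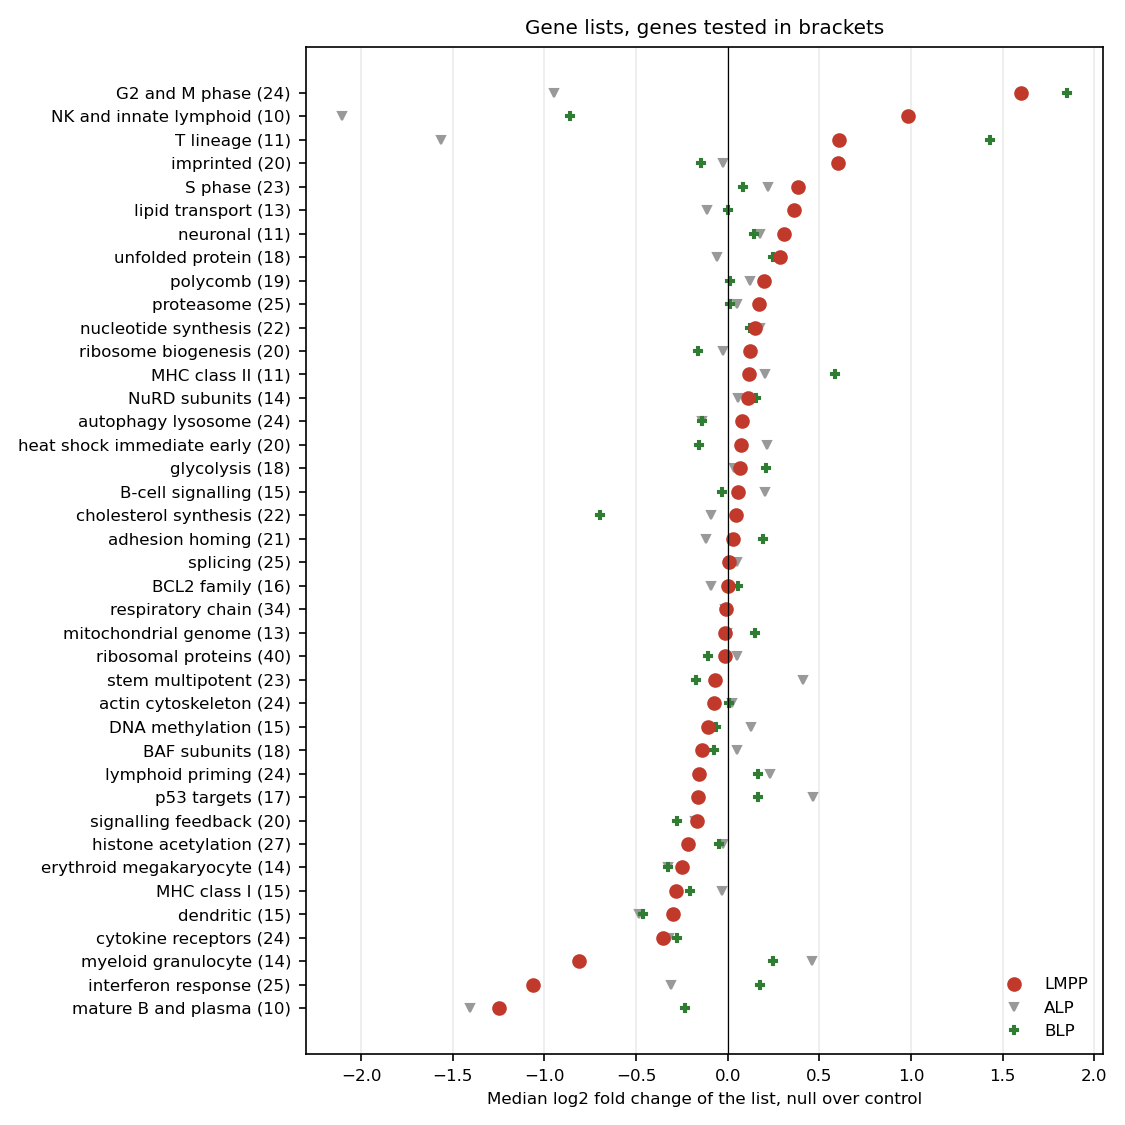
Median log2 fold change of null over control for each gene list with at least 10 genes tested, in LMPPs (red circles), ALPs (grey triangles) and BLPs (green crosses). In LMPPs the G2 and M phase list is highest at 1.60 and the mature B and plasma list lowest at −1.25, followed by the interferon list at −1.06. With cells thinned to equal counts these 2 medians were 0.03 and −0.85.

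Markers of other cell types were summed in each mouse. T lineage markers summed to 169 and 95.2 CPM in null LMPPs and 192 and 211 CPM in control LMPPs, which did not overlap. By gene the T lineage list was split, with 6 of 11 tested higher and 5 lower in null LMPPs. Its median log2 fold change was 0.60, opposite in direction to the sum, and −0.16 with cells thinned to equal counts. Erythroid and megakaryocyte markers summed to 198 and 188 CPM in null mice and 181 and 214 CPM in control mice. NK and innate lymphoid markers summed to 102 and 112 CPM in null mice and 109 and 89.5 CPM in control mice, and neither of these lists separated the genotypes. Mature B and plasma markers had 8 of 10 genes lower with a median of −1.25, which was 0.03 (4 of 6 higher) with cells thinned to equal counts, −0.25 on per-cell means and −2.32 to −1.05 without 1 mouse. Among them was Sdc1 at 20.6 and 20.4 CPM in null LMPPs against 77.6 and 87.0 CPM in control LMPPs, with 1 cell holding 73.4% of the reads in control mouse 18220. Summed over that list, whose level is mostly the heavy chain gene Ighm, the genotypes overlapped at 1157 and 1249 CPM in null mice and 1529 and 1222 CPM in control mice. The part of such cells in the results above was not tested.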

How the data were processed

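Single LMPPs, ALPs and BLPs of 4 mice were profiled by full-length single-cell RNA sequencing (the Picelli method with an XT kit from Illumina), as the labels' protocols state. The authors deposited raw read counts per gene and cell, made with GSNAP 2015-09-29 and HTSeq 0.5.3p3 on mm10, per the submitters' processing notes. Neither the annotation release nor the strand setting is stated, so reads of overlapping or antisense partners cannot be separated, and a count is a read, not a molecule. Spike-ins (6.13% of entries) and HTSeq summary entries, of which unaligned reads took 33.0%, stayed out of library sizes and tests.

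Cells were assigned to population, genotype and mouse from their titles. Kept cells were summed per mouse and population (12 sums) and fitted with edgeR 4.0.16 in R 4.3.3 (TMM, filterByExpr, quasi-likelihood, 6 group means, 6 residual degrees of freedom, Benjamini-Hochberg adjustment). The approximate SE is the log2 fold change divided by the square root of its F statistic. Shares of cells with a read after thinning to 50000 counts (seed 7) were arcsine square root transformed and tested with limma 3.58.1 where at least 10% of cells had a read in 2 sums. Differences between populations are interaction contrasts of the edgeR fit. Alternatives included DESeq2 1.42.0, limma-voom, no low-count filter, per-cell means of log2(CPM + 1), and leaving out each mouse. Added after the data were seen were expected shares, a column layout term, and leaving out null cells with 10 or more Mbd3 reads. Expected shares replace the random thinning draw by the hypergeometric chance of a read.

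Members, gene lists and tests were chosen with earlier results of these data known. Named genes are Mbd3, the gate genes, up to 12 genes a direction by smallest edgeR p (at least 20 CPM in the higher genotype, mice apart in CPM and shares, predicted genes, pseudogenes and sex- and mitochondria-linked genes left out), up to 6 more a direction by smallest p of shares, and up to 4 members of each list. Genes called only by an alternative, and Isg15, Stat2, Irf7, Il3ra, Cd34 and list members beyond the first 4, were chosen after their values were seen. Symbols and coordinates come from GENCODE on GRCm38. In the main edgeR and limma fits, p-values measure the spread within groups over all 12 sums of the 4 mice. The edgeR fit has 6 residual degrees of freedom. ALP and BLP sums therefore also set the spread behind the LMPP p-values. Sums of the same mouse entered these fits as independent, and only the alternative with mouse as a random replicate block linked them.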

Additional observations from a re-analysis of the deposited data

Results flagged for a closer look

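The number of listed genes with a read per cell at equal depth moved one way in LMPPs and the opposite way in a later stage for several lists. Both null mice lay below both control mice in LMPPs and above them in the later stage. The lists were picked from all lists for that reversal. In LMPPs every list that separated the genotypes was lower in null mice, splicing included (−1.09 genes per cell). The difference between stages was not tested. The LMPP difference was −2.02 genes per cell for the interferon list, −0.912 for the myeloid list, −0.130 for the T lineage list and −0.126 for the germline list, each set against BLPs. It was −0.804 for B-cell signalling genes and −0.0515 for neuronal genes, each set against ALPs. For the 6 sorting gate genes it was −0.278, set against both ALPs and BLPs.

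Reads that did not align stand outside the gene measurements. Their share in the median cell was 35.6% and 35.2% in null mice, against 31.6% and 30.5% in control mice, a difference of 4.36 percentage points.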

How the results depend on the processing

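In LMPP summed counts edgeR called 0 genes, as did the other normalization, limma-voom, the LMPP libraries alone, all cells kept, thinned cells, the layout term and each fit without 1 mouse (0 to 0), while 8 were called without the low-count filter, 15 on per-cell means and 495 by DESeq2. For shares, 1 gene (Actr2) was called at 200000 counts, 3 on expected shares, and 0 to 12 without 1 mouse; the 12, without null mouse 18217, were genes read in nearly all cells, and 2 were called without control mouse 18218. DESeq2 called 239 and 394 genes for the difference from ALPs and from BLPs, where edgeR called 0. The labels give null and control mice no shared number, but the deposited columns interleave null mouse 18217 with control mouse 18218 and null mouse 18219 with control mouse 18220, and the layout term is a fit on those pairs. With mouse as a random replicate block over the 3 populations limma-voom called 0 genes, with 1416 at an unadjusted p under 0.05.

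The G2 and M median of 1.60 ranged from 0.44 to 2.20 without 1 mouse and was 0.47 on per-cell means. The myeloid median ranged from −1.52 to −0.36 without 1 mouse, and the unfolded protein median from 0.17 to 0.35, with −0.0041 on per-cell means. Of 479 pairs of 30 named genes and a setting, 435 kept direction and side of the threshold, 32 passed it, 24 of them by DESeq2, and 12 changed sign. The changes of sign were Ptprc with thinned cells (0.00274), Ly6a without control mouse 18218 (0.0605), and Kit, which was 0.01 as reported and −0.0273 without the filter, −0.0844 with limma-voom, −0.0835 with the mouse block, −0.0521 thinned, −0.605 on per-cell means, −0.330 without null mouse 18219, −0.152 without control mouse 18218, −0.0100 without 2 ALP sums, −0.0111 with the layout term and −0.0643 without the null cell rich in Mbd3 reads. Without 1 mouse Kit ranged from −0.330 to 0.261 and Ly6a from −0.699 to 0.0605. The cause of these shifts was not tested. With 45 to 47 cells a mouse, a share of 0 allows up to 6.67%.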
